A study of Mus musculus with 6 samples.

Results

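The genes described here encode 10 core transcription factors of heart muscle: Nkx2-5, Gata4, Gata6, Tbx5, Tbx20, Hey2, Hand2, Mef2a, Mef2c and Prox1. They were picked by symbol, with earlier results of these data known. All 10 are present among the 12824 genes of the deposited table. All 10 also passed the filter on low counts that left 12686 genes for testing. RNA was measured in whole hearts of 6 adult C57BL/6 mice aged 2 months. In 3 of them both copies of the splicing factor gene Srsf4 were floxed and an Nkx2.5-Cre allele was present (genotype SRSF4flox/flox;NKx2.5-Cre, called KO here). The 3 controls carried SRSF4flox/flox without the Cre. Nkx2.5-Cre acts in cells that use, or descend from cells that used, the regulatory sequence of Nkx2-5 itself. The labels do not say whether the Cre replaces part of an Nkx2-5 copy. Every KO heart carries the Cre and no control does, so the presence of the Cre and the loss of SRSF4 cannot be told apart in any value below.

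These factors bind DNA side by side at the enhancers of contractile, ion channel and natriuretic peptide genes. NKX2-5 is a homeodomain protein, GATA4 and GATA6 are zinc finger proteins and TBX5 and TBX20 are T-box proteins; the families physically interact and switch on targets together. HAND2 and HEY2 are basic helix-loop-helix proteins, the latter acting downstream of Notch as a repressor, and MEF2 proteins are MADS-box factors that respond to calcium signalling.

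Libraries held 59810975 to 74941323 estimated read counts. Srsf4 was lower in every KO heart, at 8.39 to 10.8 CPM (counts scaled to the TMM-adjusted library size) against 22.1 to 23.7 CPM in controls, so the libraries followed their labels. Heart KO 1 stood apart from the other KO hearts on the second principal component (17.4% of the variance), at -34.7 against 17.5 and 13.2. Of the 12686 genes tested, 6.03% passed an adjusted p of 0.05 in edgeR's quasi-likelihood test (called genes below), and 22.8% passed without KO 1. The sample codes of the KO hearts share a prefix and those of the controls share another. The labels do not say what the prefix stands for, so whatever it marks cannot be told apart from genotype either.

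Nkx2-5 and Hey2 were lower in the KO hearts, and the other 8 factors did not pass the test. The 2 of 10 called stand beside 6.03% of all genes called, 3.29% higher and 2.74% lower. Because the 10 were chosen with earlier results of these data known, this count is no independent sign of a change in the set. The KO values lay wholly below the control values in 2 of the 10, Nkx2-5 and Hey2, and wholly above them in 2, Hand2 and Mef2c. Of all tested genes 27.2% were separated in this way, 13.5% with the KO hearts below and 13.7% with them above. The median log2 fold change of the 10 was 0.10, against -0.0032 over all tested genes. In bulk tissue, fewer cells of a type and less RNA per cell cannot be told apart.

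**Figure D1:**
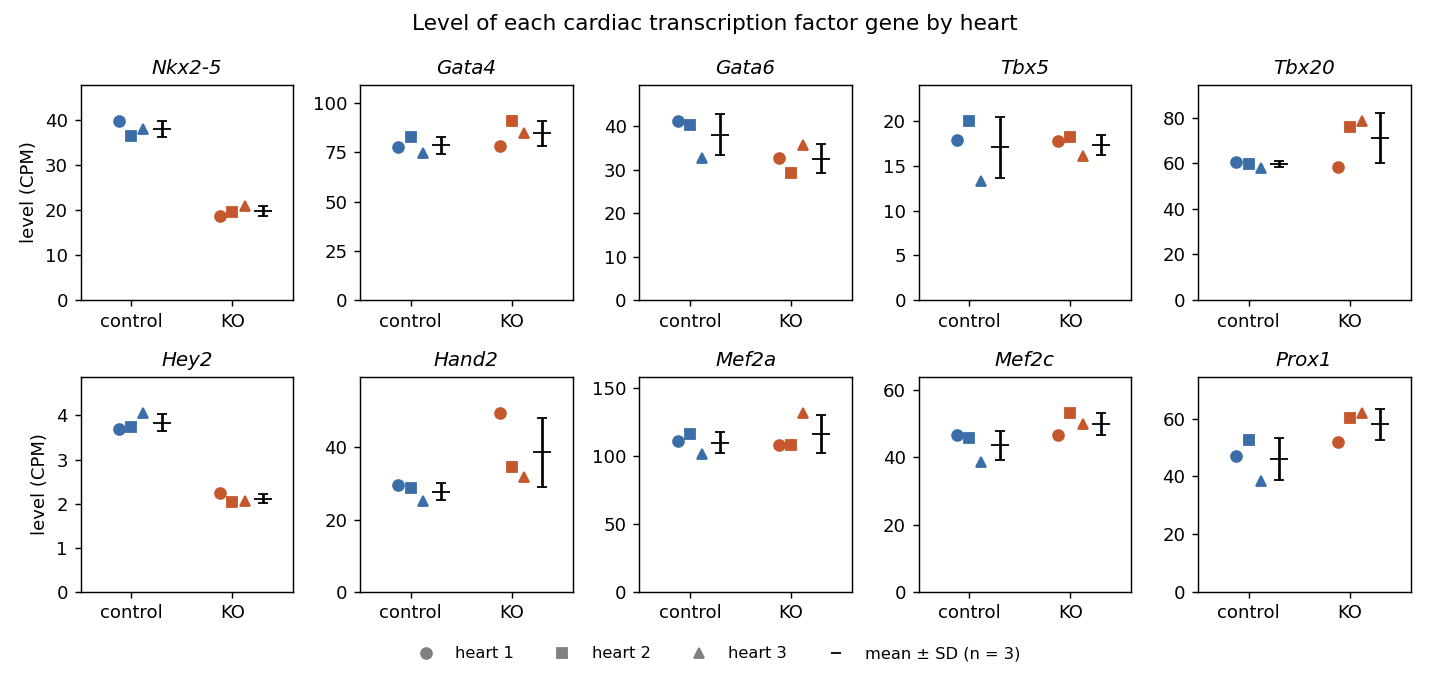
Level in CPM (linear axis from 0) of each of the 10 genes in each heart, with controls in blue, KO hearts in orange, a marker shape per heart number and the mean ± SD (n = 3) beside them. Nkx2-5 lies between 18.7 and 20.9 CPM in the KO hearts and between 36.4 and 39.9 CPM in the controls, and Hey2 is the other gene whose KO values all lie below the controls.

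Nkx2-5 (ENSMUSG00000015579, chromosome 17, 26838664 to 26841565, GRCm38), the homeobox gene needed for the growth and patterning of the heart tube, had 39.9, 36.4 and 38.0 CPM in controls 1 to 3. It had 18.7, 19.6 and 20.9 CPM in KO hearts 1 to 3. Every KO heart stood far below every control, and the gap between the groups was larger than the spread within either. Its log2 fold change was -0.95 (SE 0.08, 95% interval -1.13 to -0.76, edgeR adjusted p = 0.000652), a KO level 0.518 times that of controls with an interval of 0.456 to 0.589. The counts behind it were 2313 to 3092 in controls and 1264 to 1409 in KO hearts. The count covers the whole gene, so it does not show from which allele the reads came.

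Hey2 (ENSMUSG00000019789, chromosome 10, 30832359 to 30842801), a repressor that holds back atrial genes in ventricular muscle, had the lowest level per kilobase of the 10 in both groups. It had 3.70, 3.74 and 4.06 CPM in controls 1 to 3 and 2.23, 2.05 and 2.06 CPM in KO hearts 1 to 3. The groups did not overlap, and the 3 KO hearts lay close together, KO 1 among them. Its log2 fold change was -0.86 (SE 0.12, 95% interval -1.13 to -0.59, edgeR adjusted p = 0.0059). It rested on 238 to 287 counts in controls and 132 to 156 in KO hearts, fewer than for any other of the 10.

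The promoters of Nkx2-5 and Hey2, the genes that fell, are shown beside that of Hand2, the member with the highest log2 fold change (it did not pass the test), to show what lies at the start of each. Each runs 5′ to 3′ on the gene's strand from 250 bases before to 50 after the RefSeq start (GRCm38.p6). They lie at chr17:26841516-26841815 (minus strand), chr10:30842734-30843033 (minus strand) and chr8:57320733-57321032 (plus strand). Capitals mark matches on either strand to the letters that follow. AAGTG is bound by NK2 homeodomains, AGATAA by zinc fingers of the GATA kind and AGGTGT by T-box proteins. CTANNNNTAG is a loose form of the MEF2 site that leaves its middle bases free. The E-box CACGTG and any E-box, CANNTG, are the kind of site that helix-loop-helix proteins bind.
Nkx2-5: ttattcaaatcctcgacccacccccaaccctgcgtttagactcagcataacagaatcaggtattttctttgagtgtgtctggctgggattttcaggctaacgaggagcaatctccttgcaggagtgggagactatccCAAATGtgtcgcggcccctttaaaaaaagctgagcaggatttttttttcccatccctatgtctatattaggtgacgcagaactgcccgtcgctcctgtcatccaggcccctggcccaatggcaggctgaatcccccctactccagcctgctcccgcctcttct
Hey2: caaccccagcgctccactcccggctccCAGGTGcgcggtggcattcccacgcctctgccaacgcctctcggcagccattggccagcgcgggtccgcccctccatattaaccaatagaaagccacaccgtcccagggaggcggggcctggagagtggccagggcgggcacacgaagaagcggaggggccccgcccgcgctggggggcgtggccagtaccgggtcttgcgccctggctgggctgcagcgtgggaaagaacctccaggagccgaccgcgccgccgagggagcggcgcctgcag
Hand2: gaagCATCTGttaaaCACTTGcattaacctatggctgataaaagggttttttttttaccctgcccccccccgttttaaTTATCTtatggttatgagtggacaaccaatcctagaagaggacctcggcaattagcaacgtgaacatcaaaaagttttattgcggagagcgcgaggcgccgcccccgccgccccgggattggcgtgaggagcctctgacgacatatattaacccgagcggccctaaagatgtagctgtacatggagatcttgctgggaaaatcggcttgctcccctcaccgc

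In the Nkx2-5 and Hey2 windows the only match was 1 CANNTG each, at position -113 of Nkx2-5 and -223 of Hey2, counted from the RefSeq start at 0. The Hand2 window held AAGTG and AGATAA, each read on the opposite strand (positions -235 and -172), and 2 CANNTG, one of which overlaps the AAGTG. Such letters are frequent. CANNTG is present in 72.3% of the 32851 promoter windows of this length (27025 genes) and AAGTG in 46.4%. The shares are 13.7% for the T-box letters, 11.2% for the GATA letters, 7.15% for CACGTG and 3.69% for CTANNNNTAG. Each match of CACGTG also matches the wider E-box. The share of CTANNNNTAG counts any middle bases, so it is not the share of MEF2 sites. Windows of 7 of the 10 genes are described here, which are Nkx2-5, Tbx20, Hey2, Hand2, Mef2a, Mef2c and Prox1. Any window on chromosome 18, where Gata6 lies, was left out. The Mef2a window holds a CTANNNNTAG at position -2. The 3 Mef2c windows and the 2 Prox1 windows each hold an AAGTG, and the Tbx20 window holds none of these letters. By base composition the Hey2 window was the richest in G and C of these, at 72.0%, against 51.7% for Nkx2-5, 50.3% for Hand2 and a median of 52.7% over all windows.

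Prox1 (ENSMUSG00000010175, chromosome 1, 190118035 to 190170714) is a homeobox gene of cardiomyocytes and of lymphatic endothelium. It had 47.0, 52.7 and 38.5 CPM in controls and 52.0, 60.1 and 62.1 CPM in KO hearts. Control 2 lay above KO 1, so the groups overlapped. On the log2 scale the difference of 0.33 (SE 0.13, 95% interval 0.03 to 0.63) did not pass after adjustment over all genes (edgeR adjusted p = 0.19). Without KO 1 it was 0.41 and passed (edgeR adjusted p = 0.0412), in a fit that called 22.8% of all genes and 12.3% as higher. Markers of lymphatic endothelium gave values in the other direction. All 7 tested had log2 fold changes below 0, as had 50.65% of all genes, with 1 called (Lyve1, a hyaluronan receptor, 5.33 ± 1.03 against 9.74 ± 1.07 CPM, edgeR adjusted p = 0.0207, lost without control 1, control 2 or KO 3). Their summed level was 28.7 to 36.9 CPM in KO hearts and 46.3 to 50.2 CPM in controls. Values below 0 were not limited to this list. Log2 fold changes lay below 0 in 8 of 10 endothelial and 9 of 10 smooth muscle and pericyte markers. The same held for 6 of 9 macrophage markers and 5 of 10 fibroblast markers. The part of lymphatic cells in the Prox1 level was not tested.

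Of the GATA genes, Gata4 (ENSMUSG00000021944, chromosome 14, 63198922 to 63271692), a partner of NKX2-5 at the Nppa promoter, had 77.9, 82.9 and 74.7 CPM in controls and 78.3, 91.0 and 84.6 CPM in KO hearts. The ranges overlapped, and the interval of the fold change, 0.939 to 1.24, leaves room for a rise or a small fall (log2 fold change 0.11, SE 0.09, edgeR adjusted p = 0.529). Gata6 (ENSMUSG00000005836, chromosome 18, 11052510 to 11085635), active in muscle and in non-muscle cells of the heart, had 41.3, 40.4 and 32.7 CPM in controls and 32.8, 29.2 and 35.7 CPM in KO hearts. Control 3 lay within the KO range and the other controls above it. Its log2 fold change was -0.23 (SE 0.12, 95% interval -0.50 to 0.05, edgeR adjusted p = 0.322). In GENCODE M21 its transcripts share 93 exon bases on the opposite strand with 1010001N08Rik (3.47 ± 0.626 CPM in KO hearts against 2.74 ± 0.245). The deposited end of 1010001N08Rik, 11052567, leaves a shorter overlap, and whether counting used strand is unknown here.

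Of the T-box genes, Tbx5 (ENSMUSG00000018263, chromosome 5, 119834663 to 119885218), a factor of atria, left ventricle and conduction tissue, had the smallest log2 fold change in size of the 10. It had 17.9, 20.0 and 13.4 CPM in controls and 17.8, 18.2 and 16.1 CPM in KO hearts. The KO values lay inside the range of the controls, and the interval of the fold change was 0.799 to 1.29 (edgeR adjusted p = 0.956). Tbx20 (ENSMUSG00000031965, chromosome 9, 24720812 to 24774303), which the adult heart needs for contraction and rhythm, had 60.6, 59.7 and 58.0 CPM in controls. It had 58.2 CPM in KO 1 but 76.0 and 78.6 CPM in KO 2 and KO 3. The controls were nearly equal, KO 1 lay among them, and the other KO hearts lay above all of them. The difference of 0.26 on the log2 scale (SE 0.12, adjusted p = 0.27 in edgeR) became 0.38 without KO 1 and then passed (adjusted p = 0.00521 in edgeR).

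Hand2 (ENSMUSG00000038193, chromosome 8, 57320983 to 57324517), a helix-loop-helix gene of the developing right ventricle, had 29.5, 28.6 and 25.1 CPM in controls. It had 49.5, 34.4 and 31.7 CPM in KO hearts 1 to 3. All KO values lay above the controls, with KO 1 far above the rest. On the log2 scale the difference of 0.47 (SE 0.17, 95% interval 0.08 to 0.87, edgeR adjusted p = 0.163) did not pass and was 0.25 without KO 1 (edgeR adjusted p = 0.0715). In GENCODE M21 Hand2 has 461 exon bases in common with Hand2os1, an antisense transcript that starts beside it. In the deposited coordinates Hand2os1 ends at 57320859, before Hand2 begins. Whether reads of the pair were shared in these counts is therefore not known. Hand2os1 was also highest in KO 1, at 32.5 CPM, against 18.3 and 17.1 CPM in the other KO hearts and 18.3 to 26.5 CPM in controls (edgeR adjusted p = 0.965). The part of Hand2os1 reads in the Hand2 value was not tested.

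Of the MEF2 genes, Mef2a (ENSMUSG00000030557, chromosome 7, 67231163 to 67372858), the main MEF2 gene of adult heart muscle, had 111, 116 and 101 CPM in controls and 108, 108 and 132 CPM in KO hearts. KO 3 alone lay above the controls, and the interval of the fold change was 0.891 to 1.26 (edgeR adjusted p = 0.722). In GENCODE M21 its exons share 302 bases on the opposite strand with Lysmd4, at 16.1 ± 3.90 CPM in KO hearts and 14.2 ± 0.803 in controls. In the deposited coordinates Lysmd4 ends at 67228468, before Mef2a begins. Mef2c (ENSMUSG00000005583, chromosome 13, 83504034 to 83667079), needed for the outflow tract and right ventricle of the embryo, had 46.6, 45.7 and 38.7 CPM in controls and 46.8, 53.3 and 49.9 CPM in KO hearts. The groups were separated only by the narrow gap between control 1 and KO 1. Its log2 fold change was 0.20 (SE 0.10, 95% interval -0.03 to 0.42, edgeR adjusted p = 0.3).

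**Figure D2:**
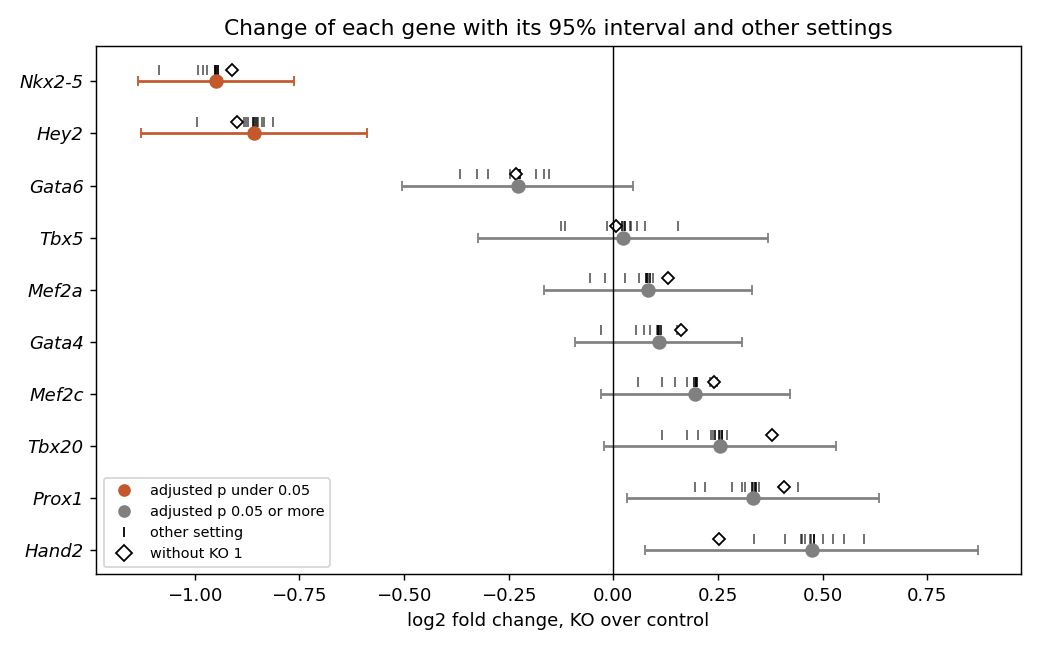
Log2 fold change of each gene, KO over control (horizontal axis), with its 95% interval from edgeR (circle and bar, orange where adjusted p was under 0.05). Ticks above each bar are the values under the other settings and the open diamond the value without KO 1; Nkx2-5 (-0.95) and Hey2 (-0.86) stay left of 0 in all of them, Tbx20 moves right to 0.38 without KO 1 and Hand2 moves left to 0.25.

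The calls of Nkx2-5 and Hey2 held in all 16 other settings, leaving out each heart included, while the share of all genes called ran from 2.27% to 22.8%. Their log2 fold changes ranged from -1.09 to -0.91 and from -0.99 to -0.81. The authors' deposited table, in which 6.43% of genes have an adjusted p under 0.05, also has 2 of the 10 under it. Its log2 fold changes are -0.95 for Nkx2-5 (adjusted p 2.78e-09) and -0.86 for Hey2 (adjusted p 0.0155), and its next smallest adjusted p among the 10 is that of Hand2, 0.155.

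A share within a library does not depend on scaling between libraries. The shares of the 10 genes do depend on each other. A lower count of Nkx2-5 by itself raises the shares of the other genes. Nkx2-5 made up 8.27 ± 0.741% of the summed counts of the 10 genes in controls and 4.02 ± 0.0445% in KO hearts (SD, n = 3 each). The KO hearts were almost equal in this share, KO 1 included. The share of Hey2 was 0.835 ± 0.106% in controls and 0.433 ± 0.0422% in KO hearts. Mef2a took the largest share in both groups, 23.8 ± 0.283% and 23.7 ± 1.87%, and Gata4 had 17.0 ± 0.606% and 17.3 ± 1.07%. Prox1 had 9.92 ± 0.886% and 11.8 ± 0.557%, and Gata6 8.23 ± 0.491% and 6.65 ± 0.628%. Hand2 went from 6.00 ± 0.174% to 7.94 ± 2.40%, with 10.7% in KO 1 and 6.99% and 6.17% in the other KO hearts. The summed level of the 10 genes was 462 ± 33.1 CPM in controls and 490 ± 24.6 CPM in KO hearts, with overlapping ranges.

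**Figure D3:**
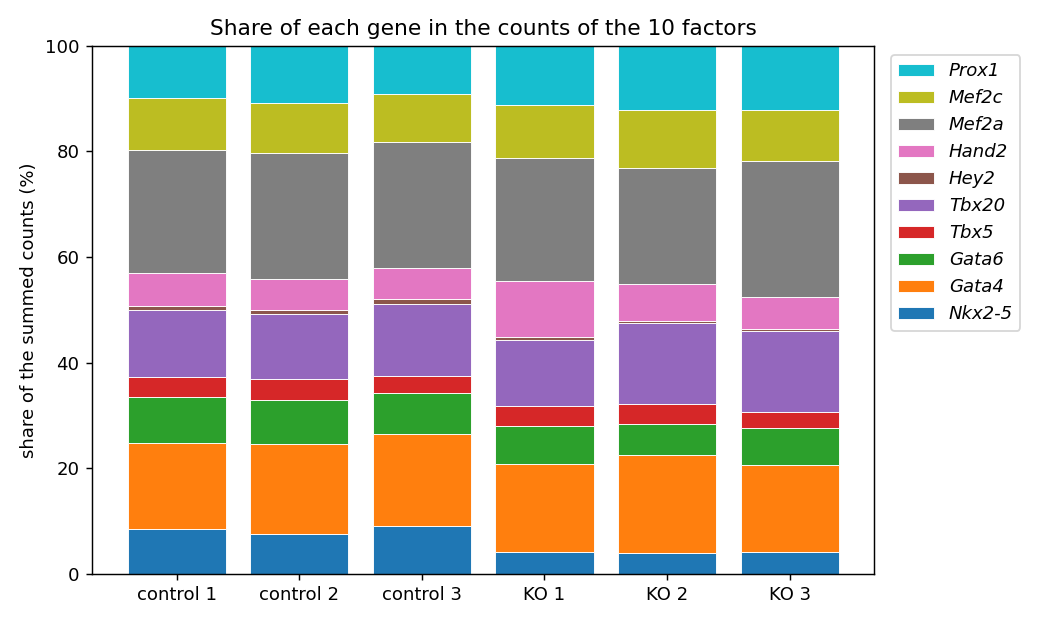
Share of each gene, in percent of the summed counts of the 10 genes, stacked for each of the 6 hearts. The Nkx2-5 segment at the bottom is 7.48 to 8.95% in the controls and 3.98 to 4.07% in the KO hearts, and the Hand2 segment is widest in KO 1, at 10.7%.

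Levels of different genes were compared as CPM per kilobase of merged annotated exons. In controls Nkx2-5 stood at 22.2 ± 1.02 and Gata4 at 20.1 ± 1.07, with overlapping ranges, above Hand2 at 11.8 ± 0.981 and Mef2a at 7.48 ± 0.520. Gata6 (5.86 ± 0.724), Prox1 (5.49 ± 0.853) and Tbx20 (4.95 ± 0.111) followed with overlapping ranges. Tbx5 had 3.65 ± 0.729, Mef2c 2.78 ± 0.275 and Hey2 0.835 ± 0.0433 CPM per kilobase. In KO hearts Gata4 was at the head with 21.7 ± 1.63, followed by Hand2 at 16.4 ± 4.10, whose KO 1 value lay within the Gata4 range. Nkx2-5 came next at 11.5 ± 0.658, below every KO value of Hand2. Mef2a (7.92 ± 0.930), Prox1 (6.92 ± 0.637), Tbx20 (5.91 ± 0.923), Gata6 (4.48 to 5.49), Tbx5 (3.71 ± 0.243), Mef2c (3.18 ± 0.209) and Hey2 (0.461 ± 0.0225) came after. The order depends on the length used. With the longest transcript in place of all exons, Mef2a had 19.8 CPM per kilobase in controls and 21.0 in KO hearts, above Nkx2-5 in the latter (12.9), while Hey2 remained the lowest in both groups.

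Scatter between hearts was also compared. The median coefficient of variation of the 10 genes was 7.63% in controls and 8.36% in KO hearts, against 6.59% and 10.6% over the 9365 genes in the same range of levels. It ran from 4.89% for Hey2 and 5.74% for Nkx2-5 to 15.6% for Tbx20 and 25.0% for Hand2 in the KO hearts.

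Genes near the 10 factors were counted by start position, within 2 Mb either side. Near Nkx2-5 9 of 86 tested genes were called (10.5%, beside 6.03% of all genes), 7 of them lower. One was Cacna1h, which is also among the NKX2-5 targets below. Another, named after its value was seen, was Hmga1, a chromatin protein gene 718 kb away, at 5.23 ± 0.113 CPM in KO hearts against 42.6 ± 1.51 in controls (edgeR adjusted p = 1.97e-06). Its count is uncertain, since the mouse genome holds near-identical copies of it. With windows of 1 and 5 Mb the share called was 13.9% each time. The closest tested neighbours were not called: Bnip1, a BCL2-interacting gene 57.6 kb away, had 12.8 ± 1.75 CPM in KO hearts against 13.4 ± 1.46 in controls, and Phf1, a Polycomb-associated gene 94.5 kb away, had 13.2 ± 2.21 against 15.4 ± 0.767. Around Gata6 7 of 23 were called (30.4%, beside 6.03%), 4 higher and 3 lower. Near Hey2 edgeR called 0 of 9 genes, where 1 had an unadjusted p under 0.05 and DESeq2 called 1 (11.4% of all genes with DESeq2). In edgeR's test Hey2 was thus the one called gene of its stretch, and Nkx2-5 one of several.

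The genes whose pattern over the 6 hearts was most like that of Nkx2-5 were sought by the root mean square difference of centred log2 CPM, among 10308 genes. They were Max (0.065), Adora1 (0.066), Rad1 (0.074), Yipf4 (0.092) and Serpinh1 (0.096 on the log2 scale). Adora1, the adenosine A1 receptor gene, is also on the list of GATA targets below. Max, the partner of MYC, had 12.5 ± 0.759 CPM in KO hearts against 22.3 ± 0.928. For Hey2 they were Rnase4 (0.055), Pth1r (0.057), Egflam (0.062), Rad1 (0.071) and Zfp943 (0.074). The difference between Nkx2-5 and Hey2 themselves was 0.11, which placed Hey2 as number 10 for Nkx2-5 and Nkx2-5 as number 25 for Hey2. All 9 genes named here were lower in the KO hearts, which the likeness itself brings about.

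Of 47 other transcription factor genes of the heart, 34 were tested and 2 passed (5.88%, beside 6.03% of all genes), 1 higher and 1 lower, with a median log2 fold change of -0.05. Nfatc2, a calcineurin-responsive factor, had 14.9, 14.3 and 12.8 CPM in controls and 8.71, 8.33 and 7.94 CPM in KO hearts. It fell without overlap, by 0.75 on the log2 scale (SE 0.09, adjusted p = 0.00394 in edgeR), and was called whichever heart was left out. Esrrg, an orphan nuclear receptor of mitochondrial genes, rose from 25.4 ± 3.17 to 37.1 ± 4.41 CPM (edgeR adjusted p = 0.0475). Its call was lost without any 1 control, KO 2 or KO 3 (edgeR adjusted p up to 0.186), and also with total counts (adjusted p = 0.086), no filter on low counts (adjusted p = 0.0514) or a block for heart number (adjusted p = 0.0621). Srf, the MADS-box partner of myocardin, had 69.5, 71.3 and 70.0 CPM in KO hearts against 59.3, 58.5 and 56.9 CPM (edgeR adjusted p = 0.0554). The Notch target Hes1 had 6.52 ± 1.39 against 9.64 ± 0.362 CPM and the orphan receptor gene Esrrb 33.7 ± 3.30 against 28.3 ± 1.95 CPM, neither past the test. Without KO 1, 6 of the 34 were called (17.6%, below the 22.8% of all genes in that fit). Of 22 cofactors of these factors edgeR called 0. In edgeR 6 had an unadjusted p under 0.05, a count whose share over all genes is not given here. DESeq2 called 2 of the 22, where it called 11.4% of all genes, and limma-trend 0, where it called 6.03%.

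**Figure D4:**
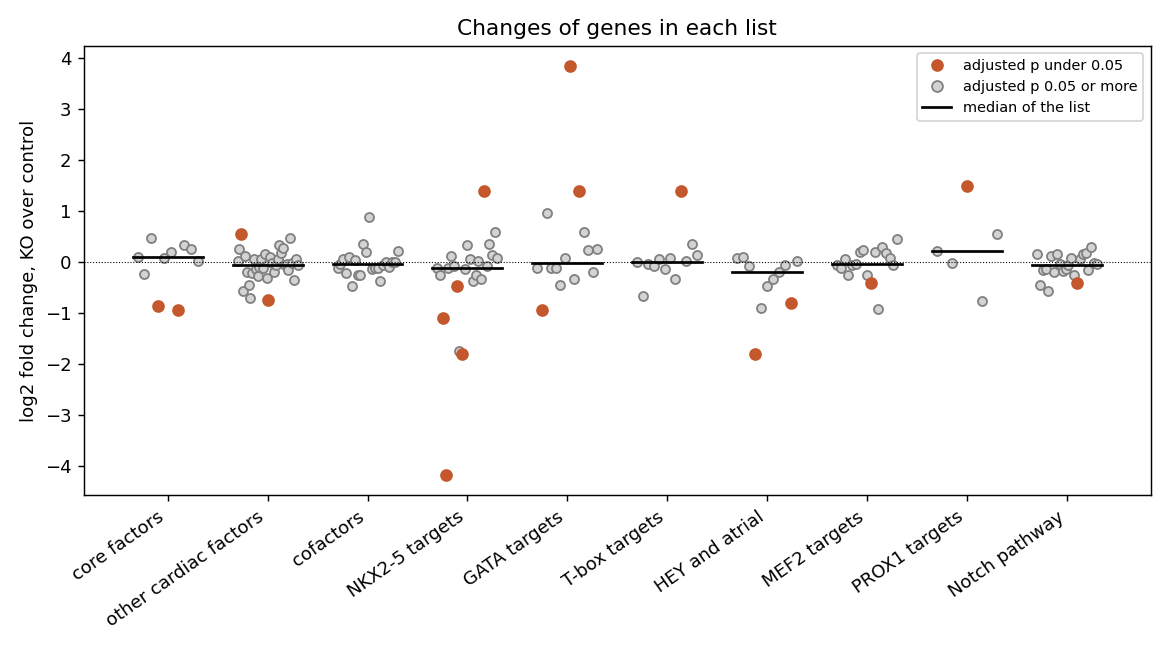
Log2 fold change, KO over control (vertical axis), of every tested gene of each list (horizontal axis), in orange where edgeR's adjusted p was under 0.05, with the list's median as a black line. The medians lie between -0.20 and 0.22. By number the NKX2-5 targets (23 tested) have the most called genes, 1 above 0 and 4 below. Their share called, 21.7%, is near that of the GATA targets, 21.4%, beside 6.03% of all genes.

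Among genes known as NKX2-5 targets, 23 were tested and 5 passed (21.7%, beside 6.03% of all genes), 1 higher and 4 lower, with a median log2 fold change of -0.11. The list was drawn up with earlier results of these data known, so its count is no independent sign of a direction. The lower genes were the calcium channel genes Cacna1h and Cacna1g, the pacemaker channel gene Hcn4 and Gjc1, which encodes connexin 45. Hcn4, which NKX2-5 is known to repress in working muscle, had 2.33, 1.47 and 1.48 CPM in KO hearts against 5.69, 7.09 and 5.83 CPM. Cacna1g had 10.4, 6.90 and 6.58 CPM against 16.6 to 17.6 CPM, a call that depended on each control heart (adjusted p up to 0.066 with 1 left out), and Cacna1h had 0.344 to 0.807 CPM against 10.4 to 11.2 CPM. Gjc1 had 12.1 ± 0.984 CPM against 16.9 ± 0.317 (edgeR adjusted p = 0.0221). Among the fits that left out 1 heart, its call was kept only without KO 1. Nppb, the gene of B-type natriuretic peptide, was the one that rose, with 75.1, 197 and 135 CPM against 44.6 to 58.2 CPM (adjusted p = 0.0469 in edgeR). Of the fits that left out 1 heart, the one without KO 1 alone kept this call. Without control 1, 2 or 3 each, 2 of the list were called, beside 2.27% to 2.5% of all genes. Without KO 1, 10 were called (43.5%), beside 22.8% of all genes.

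GATA targets passed in 3 of 14 tested genes (21.4%, beside 6.03% of all genes), with Myh7 and Nppb higher and Adora1 lower. Adora1 had 9.64, 10.9 and 11.6 CPM in KO hearts and 20.2, 21.0 and 20.0 CPM in controls. The groups lay far apart (log2 fold change -0.93 with SE 0.09, adjusted p = 0.00142 in edgeR), and the gene was called whichever heart was left out. Myh7, the beta myosin heavy chain, had 756, 1237 and 1212 CPM against 56.1 to 90.8 CPM. Myh6 is a close paralogue, and how shared reads were assigned is not known, so its size is uncertain. Of T-box targets 1 of 12 passed, Nppb again (8.33%, near the 6.03% of all genes).

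Among atrial genes and other genes that HEY2 is known to hold down, 2 of 11 tested genes passed (18.2%, beside 6.03% of all genes), both lower (2.74% of all genes). Log2 fold changes were below 0 in 8 of the 11 and in 50.65% of all genes. Gata4 and Tbx5 are on this list too. Stard10, a lipid transfer protein gene of atrial muscle, had 9.57, 9.48 and 8.66 CPM in KO hearts and 16.4, 16.5 and 15.6 CPM in controls (edgeR adjusted p = 0.00167), and the other was Hcn4. The list's median log2 fold change was -0.20. Of 9 listed atrial marker genes 5 were tested. Their summed level was 60.5 CPM in KO 1, 255 and 209 CPM in KO 2 and KO 3 and 196 to 264 CPM in controls. Most of this sum was Nppa, at 39.6, 237 and 185 CPM in KO hearts 1 to 3 and 160 to 223 CPM in controls. KO 1 stood apart in the sum through Nppa. All 5 had log2 fold changes below 0. In 3 of them the KO values lay wholly below the controls, as in 13.5% of all genes. Of these 5, Stard10 was called. The share of atrial tissue in each sample was not tested.

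Of MEF2 targets 1 of 17 passed (5.88%, near the 6.03% of all genes). It was Myom1, the M-band protein myomesin, at 853 ± 53.4 CPM against 1140.2 ± 75.3. Of the fits with 1 heart removed, that without KO 1 alone kept the call. Of the fast-muscle and other genes held down or driven by PROX1, 1 of 5 passed, a list too short for its share to be set against the 6.03% of all genes. Myl1, a fast skeletal myosin light chain gene, rose to 55.9, 91.1 and 125 CPM from 30.6, 31.6 and 34.1 CPM (adjusted p = 0.0182 in edgeR). Leaving out any control ended the call, with adjusted p up to 0.086. In the Notch pathway, which acts upstream of Hey2, 1 of 22 passed (4.55%, below the 6.03% of all genes). That was Ncstn, a subunit of gamma-secretase, at 25.6 ± 2.02 CPM against 34.2 ± 0.678 (edgeR adjusted p = 0.0276), a call that remained without KO 1 or KO 3 but not without KO 2 or any control. Without KO 1, 7 of the 22 were called (31.8%), in a fit that called 22.8% of all genes.

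Markers of the cells that carry these factors were measured alongside. Of 10 cardiomyocyte markers edgeR, DESeq2 and limma-trend each called 0, with 0 at an unadjusted p under 0.05 in edgeR, and 4 were called without KO 1, where 22.8% of all genes were. Their summed level was 57129 to 64507 CPM in KO hearts and 60361 to 62095 CPM in controls, and the control sums lay within the KO range. Of 6 ventricular markers Hey2, already among the 10 factors, alone was called (16.7%, beside 6.03% of all genes). The 7 tested conduction system markers all had log2 fold changes below 0 (50.65% of all genes did). Of these Hcn4 was called (14.3%), and their summed level was 14.4 to 21.9 CPM against 25.7 to 35.5 CPM. Smooth muscle and pericyte markers had 1 of 10 called (10%), the actin gene Acta2, lower. In 9 of the 10 the log2 fold change was below 0. The KO values lay wholly below the controls in 3 of them, as in 13.5% of all genes. The summed level of this list was 711 to 884 CPM against 886 to 924 CPM. Fibroblast markers summed to 878 CPM in KO 1, 1868 and 1671 CPM in KO 2 and KO 3 and 1458 to 1484 CPM in controls. The part of these cell types in the levels of the 10 factors was not tested.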

How the data were processed

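RNA of whole hearts (3 KO, 3 control) was poly(A)-selected and sequenced, per the labels' protocols. Build GRCm38 and the tools RSEM 1.17, edgeR, cutadapt and Picard appear in the submitters' processing notes with no role or order. The sources used here do not name the aligner, annotation, filters or strand setting. The deposited raw values are whole numbers and were taken as the authors' estimated counts. The authors' normalized signal, deposited beside them, equals the counts times 1 factor per library. The authors' deposited log2 fold change and p-value columns are quoted only where named.

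Counts were tested with edgeR 4.0.16 in R 4.3.3 (TMM factors, default filter by group, robust quasi-likelihood F test, no covariate, Benjamini-Hochberg over 12686 genes; threshold 0.05). The 95% intervals use the moderated degrees of freedom. The filter removed 138 genes. CPM was computed on TMM-adjusted library sizes, with 2 as prior count on the log2 scale. Biological variation between hearts (common dispersion, as a coefficient of variation) was 13.6%. The fit was first tested on simulated data. There it called 46.25% of 80 genes changed 1.5-fold, 83.75% of 80 changed 2-fold and 100% of 40 changed 4-fold. Of its 160 calls 10% were false, above the threshold of 0.05. Alternatives tried were DESeq2 1.42.0, limma-trend (limma 3.58.1), scaling by RLE, by upper quartile or by total counts, no filter, a minimum CPM of 1 in 3 libraries, a block for heart number, a threshold of 0.01 and the removal of each heart. The authors' scaling factors were added after seeing the data. Exon lengths and overlaps come from GENCODE M21 (GRCm38) and promoters from RefSeq (GRCm38.p6). The labels describe 3 different hearts per group.

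The members and lists were chosen with earlier results of these data known. Named genes were the 10 members, Srsf4, the called genes of each list, 3 further transcription factors by p, the 5 genes most like Nkx2-5 and the 5 most like Hey2 (mean log2 CPM of at least 1, predicted genes and pseudogenes passed over) and markers that moved. Overlapping and nearest genes were added by annotation.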

Additional observations from a re-analysis of the deposited data

How the results depend on the processing

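Each of the 10 log2 fold changes was read under 16 other settings, though the threshold of 0.01 reuses the main fit. Nkx2-5 and Hey2 kept direction and call in all 16, with adjusted p up to 0.00649 and 0.0397, both in edgeR. Scaling by total counts shifted the median over all genes to -0.14 (log2) and turned Gata4 to -0.029, Tbx5 to -0.11 and Mef2a to -0.056, all above that median. Over the fits that left out 1 heart, Tbx5 ranged from -0.13 to 0.15 and Mef2a from -0.019 to 0.13, so their signs are not settled. Tbx20 (0.18 to 0.38) and Prox1 (0.22 to 0.44) gained a call without KO 1. With 3 hearts a group, the upper bounds of the fold change of the 8 uncalled factors reached 1.83 (Hand2), so missing the threshold does not show equal levels.

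The heart numbers did not pair the samples: deviations of same-numbered hearts from their group means correlated at -0.06, 0.15 and -0.26. With the number as a replicate block, 505 genes were called (261 higher) in place of 765, and Nkx2-5 and Hey2 had log2 fold changes of -0.95 and -0.86. The block, with 3.98% of all genes called, left 3 of 23 NKX2-5 targets, 1 of 34 other transcription factors and 0 MEF2, T-box and Notch genes called. The count over all genes was 1163 with total counts (274 higher, 889 lower), 1455 with DESeq2 (823 and 632) and 291 at an adjusted p of 0.01 (159 and 132). Leaving out 1 heart gave 288 (without control 1) to 2896 (without KO 1) called genes, 154 to 1567 higher and 130 to 1329 lower.

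The following list counts, and no others under these settings, moved by over 1.5 times. DESeq2, with 11.4% of all genes called, called 8 of 23 NKX2-5, 6 of 14 GATA, 3 of 17 MEF2 and 2 of 5 PROX1 targets. It also called 4 of 34 other factors, 2 of 22 cofactors and 2 of 22 Notch genes, none of them far from that share. Total counts (9.17% of all genes) gave 3 of 22 cofactors, 2 of 17 MEF2 targets, 2 of 5 PROX1 targets and 3 of 22 Notch genes. An adjusted p of 0.01 (2.29% of all genes) left 2 NKX2-5 targets, 1 other factor and 0 T-box, MEF2, PROX1 and Notch genes. With limma-trend (6.03% of all genes) 0 T-box targets passed, and with no filter (5.96%) 1 other factor. The fits without 1 heart called 2.27% to 22.8% of all genes. Over the fits without 1 heart the counts ran from 2 to 4 of the 10 factors, 1 to 6 other factors, 0 to 3 cofactors, 2 to 10 NKX2-5, 2 to 6 GATA, 0 to 3 T-box, 0 to 4 MEF2 and 0 to 2 PROX1 targets, 0 to 7 Notch genes, and 2 throughout for the HEY2 list, highest without KO 1 for each of the other lists. The cause was not tested.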
